A study of Mus musculus with 9 samples.

Results

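The 56 mouse genes described here encode the machinery of DNA replication and of mitosis, 28 S-phase genes and 28 mitotic genes chosen by symbol. A gene was measured where a probe set of the Affymetrix MOE430A array carries exactly its symbol, which held for 54 of them (92 probe sets), out of 12393 genes on the array. Ccnb1 and Espl1 were not analysed here. Of the 54, 52 passed the filter on dim probe sets, 27 S-phase and 25 mitotic, among 7998 genes tested. Each gene is represented by its brightest probe set. Tyms and Cenpe lay below the median of the array on every array.

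Transcripts came from 3 structures microdissected from wild-type kidneys of strain 129 at E14.5 (Theiler stage 22, sex unknown), with 3 arrays each. Each s-shaped body array held a pool of 20 s-shaped bodies, and each renal vesicle array a pool of 20 renal vesicles. The collecting duct arrays had a pool size of 1. The renal vesicle is the first epithelial stage of the nephron, the s-shaped body is a later stage, and the collecting duct is the branching tubule that the nephrons join. All RNA went through 2 rounds of amplification. The labels do not say whether arrays of a structure came from different embryos, so p-values measure the spread between these samples. In every comparison that spread was pooled over all 9 arrays, although their pool sizes differed. The median SD of all genes tested was 0.19 log2 units in s-shaped bodies, 0.19 in renal vesicles and 0.26 in collecting ducts.

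Before a cell divides, the Mcm proteins are loaded on origins with Cdc6 and Cdt1, and clamp loaders, polymerases and ligase then copy the DNA. Cyclins with Cdk1, the Aurora and Polo kinases, and the spindle checkpoint drive and police the separation of chromosomes. E2F transcription factors switch on many replication genes. Many mitotic genes are switched on later through a short element called the CHR, often beside CCAAT boxes, which bind NF-Y. In the embryonic kidney, early nephron structures and the tips of the collecting duct tree are known as sites of cell division.

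The promoters of the genes carried these letters to different extents. RefSeq windows (GRCm38.p6, 250 bases before to 50 bases after the start, both strands) were available for 24 S-phase genes (28 windows) and 23 mitotic genes (24 windows). Ccna2, Mcm4, Cdc25c, Aurkb, Kif20a, Tpx2, Pole, Ccne2 and Gmnn had no window. The E2F letters searched were TTTCCCGC, TTTCGCGC, TTTGCCGC and TTTGGCGC, the CHR was TTTGAA, and the CCAAT box was CCAAT. E2F letters stood in 32.1% of S-phase windows and 4.17% of mitotic windows, against 2.26% of all 32851 windows. CHR letters stood in 10.7% of S-phase windows and 70.8% of mitotic windows, against 17.9% of all windows. CCAAT letters stood in 57.1% of S-phase windows and 87.5% of mitotic windows, against 37.4% of all windows. CHR and CCAAT stood together in 7.14% of S-phase windows and 70.8% of mitotic windows, against 6.95% of all windows.

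**Figure D1:**
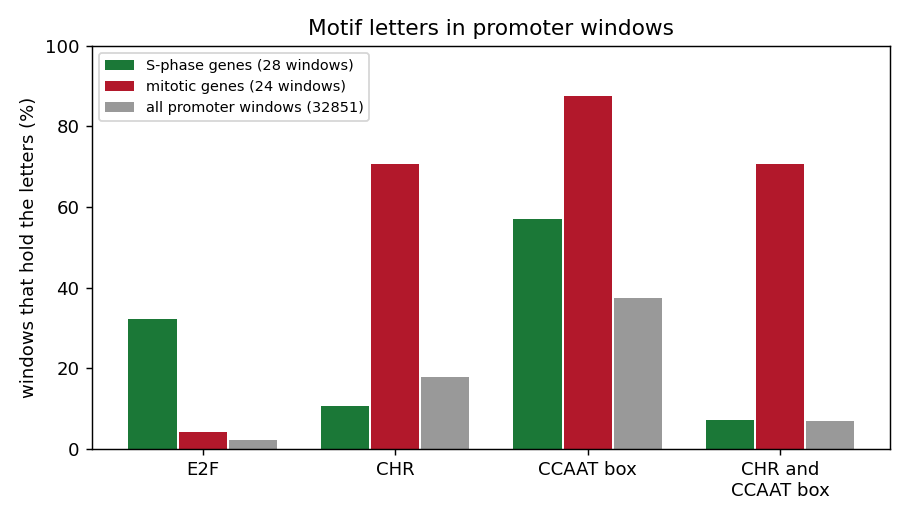
Share of promoter windows (y axis, percent) that hold the letters of each motif (x axis), for S-phase genes (green), mitotic genes (red) and all windows (grey). Letters of the CHR stood in 70.8% of mitotic windows and E2F letters in 32.1% of S-phase windows.

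The 150 bases before the start are printed for 3 genes of each class, chosen after the letters were seen, as the genes with the smallest p in the F test over the structures whose stretch holds the letters. Capitals mark the letters found, in either orientation (E2F letters in the first 3, CHR and CCAAT letters in the others).
Cdc6 (chr11:98908001-98908150, plus strand): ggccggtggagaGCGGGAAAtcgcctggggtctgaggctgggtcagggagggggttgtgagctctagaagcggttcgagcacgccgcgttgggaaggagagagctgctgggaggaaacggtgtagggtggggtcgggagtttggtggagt
Mcm5 (chr8:75109359-75109508, plus strand): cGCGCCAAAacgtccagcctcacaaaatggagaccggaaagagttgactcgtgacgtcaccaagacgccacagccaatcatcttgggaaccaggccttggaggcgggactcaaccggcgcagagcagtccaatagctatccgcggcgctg
Pola1 (chrX:93632156-93632305, minus strand): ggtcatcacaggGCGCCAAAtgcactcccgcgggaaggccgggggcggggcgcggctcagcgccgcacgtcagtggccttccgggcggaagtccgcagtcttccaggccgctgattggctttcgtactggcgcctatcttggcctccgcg
Kif11 (chr19:37376232-37376381, plus strand): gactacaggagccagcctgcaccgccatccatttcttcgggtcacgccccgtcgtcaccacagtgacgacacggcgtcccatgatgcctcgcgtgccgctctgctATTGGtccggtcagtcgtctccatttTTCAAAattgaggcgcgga
Ube2c (chr2:164769779-164769928, plus strand): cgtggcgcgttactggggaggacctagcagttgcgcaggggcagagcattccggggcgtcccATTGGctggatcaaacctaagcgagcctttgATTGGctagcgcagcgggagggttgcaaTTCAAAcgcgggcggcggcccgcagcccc
Cdc20 (chr4:118437344-118437493, minus strand): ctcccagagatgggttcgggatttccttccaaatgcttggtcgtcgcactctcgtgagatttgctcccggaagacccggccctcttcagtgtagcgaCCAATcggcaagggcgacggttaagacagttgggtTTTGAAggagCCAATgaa

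Marker genes of other cell types differed between the structures. Summed intensity of endothelium markers was 17035 to 18566 in s-shaped body arrays, against 541.8 to 1091 in renal vesicle arrays and 710.1 to 1041 in collecting duct arrays. Podocyte markers summed to 43934 to 51524 in s-shaped bodies, 1609 to 7432 in renal vesicles and 571.3 to 605 in collecting ducts. Interstitium markers summed to 10902 to 12593 in s-shaped bodies, 1656 to 2503 in renal vesicles and 616.9 to 962 in collecting ducts. Erythroid markers summed to 19407 to 22577 in s-shaped bodies, 439.9 to 2635 in renal vesicles and 195.5 to 2551 in collecting ducts. In s-shaped bodies against collecting ducts, 10 of 10 endothelium, 6 of 6 podocyte, 7 of 7 interstitium and 3 of 3 erythroid markers tested were higher. In renal vesicles against collecting ducts, 2 of 10, 3 of 6, 5 of 7 and 0 of 3 were, and 2 of 10 endothelium markers were lower. Of all genes, 16.9% were higher and 15.9% lower in s-shaped bodies against collecting ducts. In renal vesicles against collecting ducts 15.6% were higher and 15.9% lower, and in s-shaped bodies against renal vesicles 18.5% and 17.8%. Collecting duct markers summed to 1504 to 1583 in s-shaped bodies, 2722 to 13905 in renal vesicles and 37603 to 50896 in collecting ducts. Nephron markers summed to 5459 to 6389 in s-shaped bodies, 12012 to 14538 in renal vesicles and 1589 to 2501 in collecting ducts, and in s-shaped bodies against renal vesicles 7 of 8 were lower and 1 higher. The higher one was Wt1, also a podocyte gene, with 4530 to 5569 intensity units in s-shaped bodies, 1638 to 3730 in renal vesicles and 5.05 to 32.0 in collecting ducts. Lhx1, a gene of early nephron epithelium, had 81.5 to 97.1 intensity units in s-shaped bodies, 1727 to 2129 in renal vesicles and 5.5 to 33.2 in collecting ducts, and Fgf8 was near 0 on every array. Calb1, a collecting duct gene, was bright in 2 renal vesicle arrays (6589 and 9324, with 341 in renal vesicle 3) and dim in collecting ducts (54.6 to 72.5). Podxl, a podocyte gene, was 3018 in renal vesicle 3 and 247 to 248 in the other renal vesicle arrays. The median ratio of 3' to 5' signal of Gapdh was 24.4 in s-shaped bodies, 13.3 in renal vesicles and 14.6 in collecting ducts, and that of Actb 30.9, 32.3 and 37.4 in the same structures, lowest in s-shaped bodies. Thus the arrays labelled s-shaped body were dim for Lhx1 and the Notch ligand Jag1 (64.5 to 84.3), which s-shaped bodies are known to express. They were bright for genes of podocytes, endothelium, stroma and blood. The arrays labelled collecting duct were dim for Calb1, and renal vesicles 1 and 2 were bright for it. Wnt11, also a collecting duct marker, was 431, 449 and 178 in renal vesicles 1 to 3 and 92.6 to 124 in collecting ducts. On Lhx1, Jag1 and Calb1 the arrays go against their labels, and the endothelium, interstitium and erythroid markers are genes of other cell types. Each structure named below therefore stands for the arrays that carry its label. Other collecting duct genes, Krt8, Krt18, Krt19, Cdh1 and Wnt7b, were brightest in the collecting duct arrays. Of 10 collecting duct markers tested, 6 were lower and 2 higher in renal vesicles against collecting ducts. In s-shaped bodies against collecting ducts 5 were lower and 0 higher. The part of these differences in the results was not tested, and in bulk samples fewer dividing cells and less RNA per cell cannot be told apart.

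Levels are log2 of intensity plus 26 after quantile normalization, on which the median of an array is 7.28. Relative to each gene's mean, the median S-phase gene stood at -0.56 to -0.40 log2 units in the s-shaped body arrays, 0.49 to 0.66 in the renal vesicle arrays and -0.20 to -0.08 in the collecting duct arrays. The median mitotic gene stood at -0.24 to -0.18 in s-shaped bodies, 0.46 to 0.63 in renal vesicles and -0.53 to 0.05 in collecting ducts. All 3 renal vesicle arrays were above the other arrays, and collecting duct 3 was the lowest for mitotic genes. All 3 renal vesicle arrays lay above all 6 others for 19 S-phase genes (70.4%) and 19 mitotic genes (76.0%), against 12.5% of all genes. All 3 s-shaped body arrays lay below all others for 11 S-phase genes (40.7%) and 2 mitotic genes (8.0%), against 10.7% of all genes. The F test over the 3 structures passed for 23 S-phase and 22 mitotic genes, against a background of 49.6% of all genes.

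**Figure D2:**
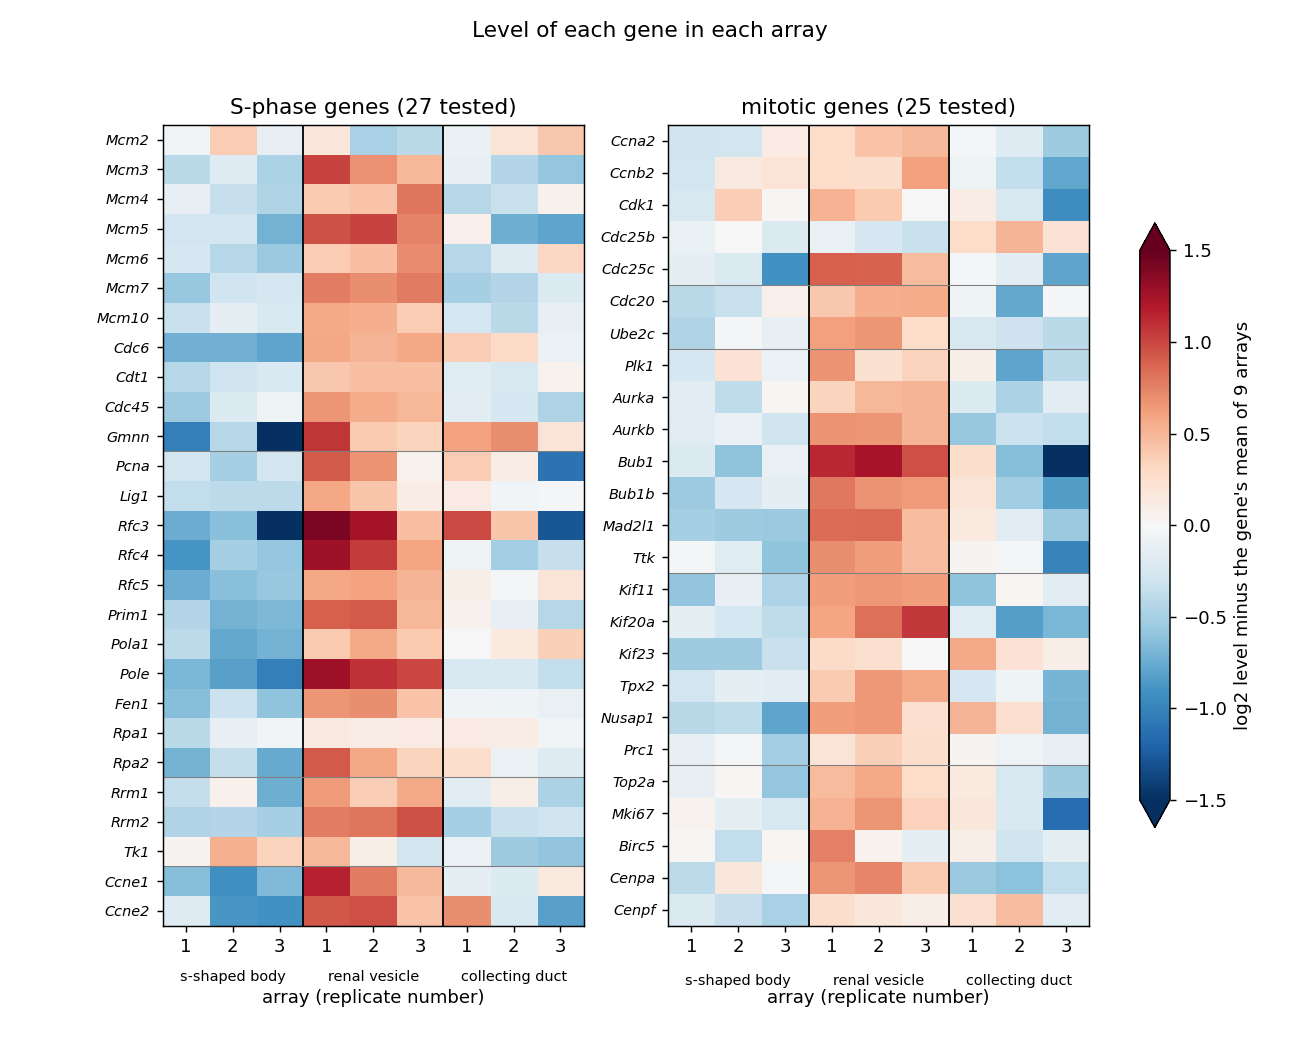
Level of each tested gene (rows, ordered by role, separated by lines) in each array (columns), as the log2 level minus the gene's mean over 9 arrays. Colours end at 1.5 in either direction and larger values take the end colour, down to -2.03 for Bub1 in collecting duct 3. Renal vesicle columns are red for most genes.

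**Figure D3:**
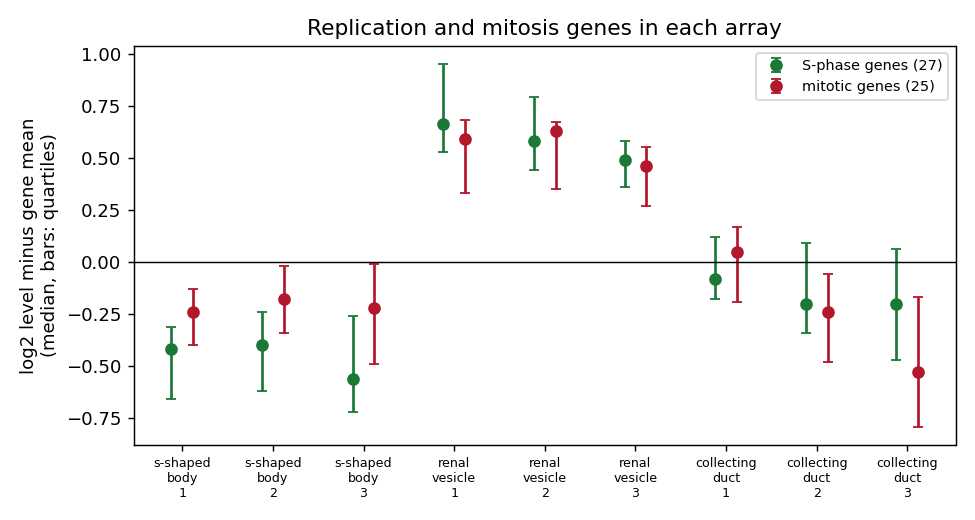
Median (points) and quartiles (bars) of the log2 level minus the gene's mean, for 27 S-phase genes (green) and 25 mitotic genes (red) in each array. The renal vesicle medians run between 0.46 and 0.66, and all other medians are at most 0.05.

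In renal vesicles against collecting ducts, most of the genes were higher. A gene is called changed at an adjusted p under 0.05 (limma, Benjamini-Hochberg over all 7998 genes). Of the S-phase genes 17 rose, 0 fell and 10 did not pass, and of the mitotic genes 18 rose, 1 fell and 6 did not pass. The background was 15.6% of all genes higher and 15.9% lower (31.5% in all). The renal vesicle arrays lay above all collecting duct arrays for 19 S-phase and 19 mitotic genes, against 21.2% of all genes, and below them for 0 and 1, against 22.1%. The median log2 difference was 0.75 for S-phase genes, 0.80 for mitotic genes and 0.01 for all genes. Leaving out each array in turn gave 14 to 19 S-phase and 14 to 19 mitotic genes higher, and 13 and 12 of them were called every time. With renal vesicle 3 and collecting duct 2 left out together, 11 S-phase genes were higher. With median centring in place of quantile normalization, the median of all genes was 0.11, that of S-phase genes 0.93 and that of mitotic genes 0.97, and 59.9% of all calls were higher against 49.7% here.

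In s-shaped bodies against collecting ducts, 9 of the 27 S-phase genes and 2 of the 25 mitotic genes passed. Of the S-phase genes 1 rose, 8 fell (29.6%) and 18 did not pass, and of the mitotic genes 0 rose, 2 fell (8.0%) and 23 did not pass. The background was 16.9% of all genes higher and 15.9% lower (32.8% in all). The s-shaped body arrays lay below all collecting duct arrays for 11 S-phase and 3 mitotic genes, against 22.6% of all genes, and above them for 1 and 1, against 21.3%. The median log2 difference was -0.31 for S-phase genes, 0.07 for mitotic genes and -0.03 for all genes. Leaving out an array gave 5 to 11 S-phase genes lower, with 5 without s-shaped body 3 or collecting duct 2, and Cdc6, Gmnn, Pola1 and Rfc5 were called every time. It gave 1 to 5 mitotic genes lower, with 5 and a median of -0.08 without collecting duct 3. With array weights, whose estimate did not converge, 14 S-phase genes were lower, and 6 mitotic genes were higher and 6 lower.

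In s-shaped bodies against renal vesicles, most of the genes were lower. Of the S-phase genes 25 fell, 0 rose and 2 did not pass, and of the mitotic genes 19 fell, 0 rose and 6 did not pass. The background was 17.8% of all genes lower and 18.5% higher (36.3% in all). The s-shaped body arrays lay below all renal vesicle arrays for 25 S-phase and 22 mitotic genes, against 27.0% of all genes, and above them for 0, against 25.9%. The median log2 difference was -1.12 for S-phase genes, -0.67 for mitotic genes and -0.03 for all genes. Leaving out an array gave 23 to 25 S-phase genes lower and 9 to 20 mitotic genes, with 12 without renal vesicle 1 and 9 without renal vesicle 2. These comparisons share arrays with each other.

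**Figure D4:**
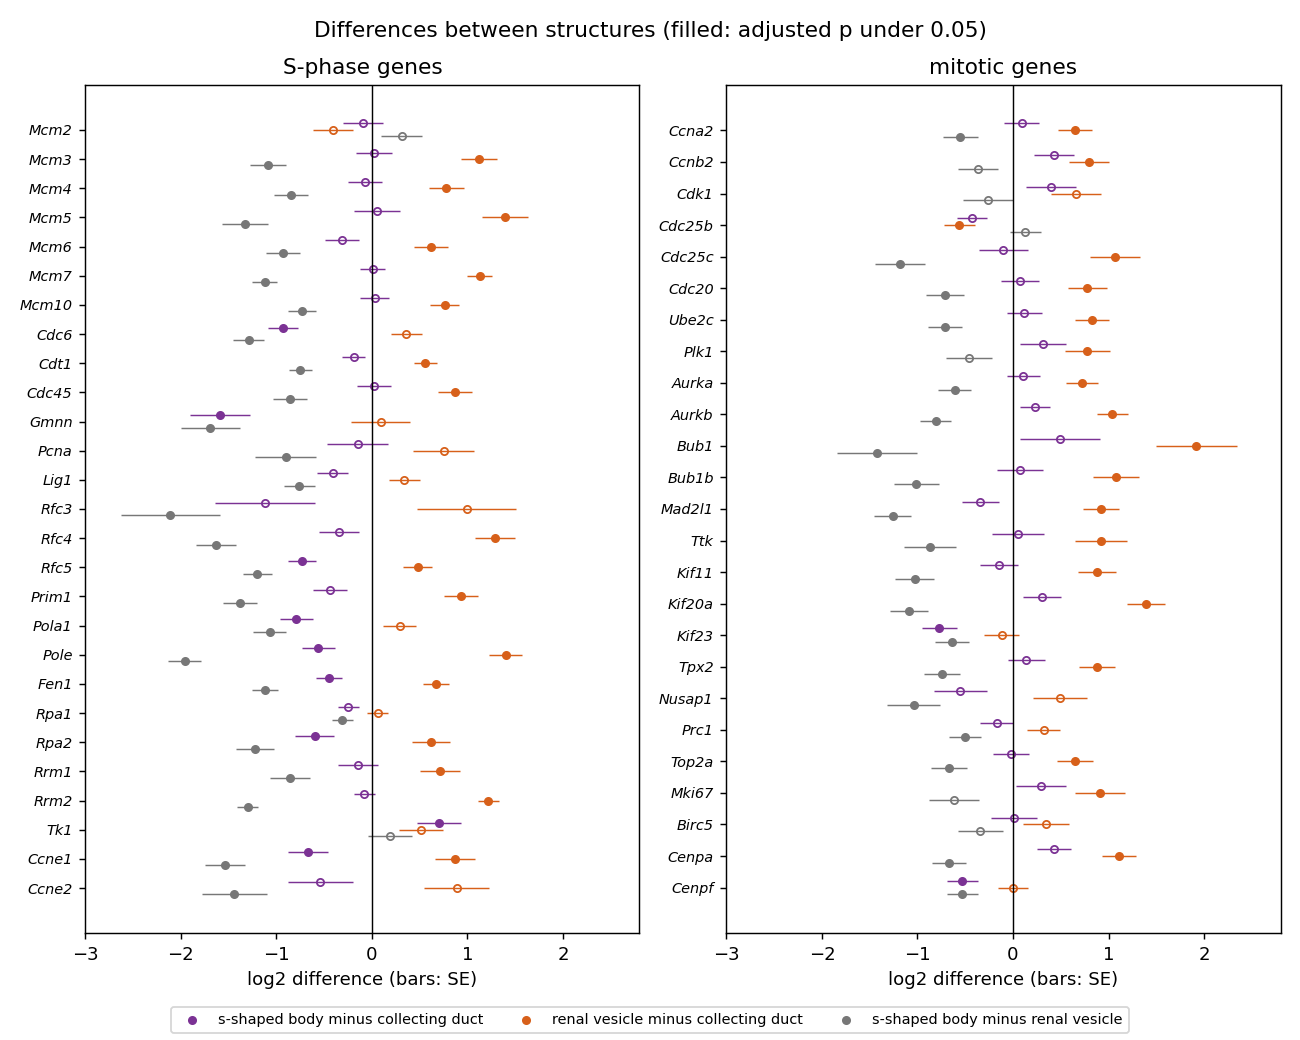
Log2 difference (x axis, bars are standard errors) of each gene in s-shaped bodies minus collecting ducts (purple), renal vesicles minus collecting ducts (orange) and s-shaped bodies minus renal vesicles (grey). Filled points have an adjusted p under 0.05. Most orange points lie above 0 and most grey points below 0.

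Among the 11 genes of origin licensing and the helicase, 8 rose in renal vesicles against collecting ducts (72.7%). In s-shaped bodies 2 fell against collecting ducts (18.2%) and 10 against renal vesicles (90.9%). For this and each role below, the background in renal vesicles against collecting ducts was 15.6% of all genes higher. In s-shaped bodies it was 15.9% lower against collecting ducts, near the 18.2% here, and 17.8% lower against renal vesicles. Mcm7, a subunit of the helicase, had log2 levels of 12.24, 12.51 and 12.56 in s-shaped bodies, 13.58, 13.50 and 13.59 in renal vesicles and 12.31, 12.37 and 12.60 in collecting ducts. The renal vesicle arrays did not overlap the others. Its log2 difference was 1.13 (SE 0.13, adjusted p = 3.7e-05) in renal vesicles against collecting ducts and -1.12 (SE 0.13, adjusted p = 3.7e-05) in s-shaped bodies against renal vesicles. For s-shaped bodies against collecting ducts it was 0.01 (SE 0.13, adjusted p = 0.96). Cdc6, which loads the helicase, had log2 levels of 9.08, 9.09 and 9.02 in s-shaped bodies, 10.38, 10.31 and 10.38 in renal vesicles and 10.18, 10.09 and 9.72 in collecting ducts. The s-shaped body arrays were below all others. The log2 difference came to -0.93 (SE 0.16, adjusted p = 0.00079) in s-shaped bodies against collecting ducts. It was -1.29 (SE 0.16, adjusted p = 7.9e-05) in s-shaped bodies against renal vesicles, and 0.36 (SE 0.16, adjusted p = 0.12) in renal vesicles against collecting ducts.

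Gmnn encodes geminin, the inhibitor of Cdt1, and had log2 levels of 9.29, 9.89 and 8.51 in s-shaped bodies, 11.39, 10.71 and 10.65 in renal vesicles and 10.92, 11.02 and 10.51 in collecting ducts. The s-shaped body arrays were the lowest and the most spread. The log2 difference was -1.59 (SE 0.31, adjusted p = 0.0017) in s-shaped bodies against collecting ducts and -1.69 (SE 0.31, adjusted p = 0.0013) in s-shaped bodies against renal vesicles. For renal vesicles against collecting ducts it was 0.09 (SE 0.31, adjusted p = 0.85). Mcm2, another helicase subunit, had log2 levels of 11.27, 11.69 and 11.18 in s-shaped bodies, 11.47, 10.82 and 10.90 in renal vesicles and 11.21, 11.50 and 11.71 in collecting ducts. The structures overlapped, and no comparison passed (s-shaped bodies against collecting ducts -0.09, adjusted p = 0.78, renal vesicles against collecting ducts -0.41, adjusted p = 0.17, s-shaped bodies against renal vesicles 0.31, adjusted p = 0.29). Another, dimmer probe set of Mcm2 rose in renal vesicles against collecting ducts (0.86, adjusted p = 0.0036). The other 7 genes of the role, Mcm3, Mcm4, Mcm5, Mcm6, Mcm10, Cdt1 and Cdc45, rose in renal vesicles against collecting ducts and fell in s-shaped bodies against renal vesicles. Their log2 differences in renal vesicles against collecting ducts lay between 0.56 (Cdt1) and 1.39 (Mcm5). The rise of Mcm6 (0.62) was lost without renal vesicle 2, renal vesicle 3, collecting duct 1 or collecting duct 2 (log2 difference 0.47 to 0.65, adjusted p = 0.053 to 0.079).

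At the replication fork, all 11 genes fell in s-shaped bodies against renal vesicles, 6 rose in renal vesicles against collecting ducts, and 5 fell in s-shaped bodies against collecting ducts. Leaving out an array gave 2 to 8 such falls against collecting ducts, with 2 without s-shaped body 3 or collecting duct 2, 3 without s-shaped body 1 or collecting duct 1, and 8 without collecting duct 3. Pole, the leading-strand polymerase, had log2 levels of 7.52, 7.39 and 7.18 in s-shaped bodies, 9.48, 9.29 and 9.20 in renal vesicles and 7.96, 7.97 and 7.84 in collecting ducts. The 3 structures did not overlap. It differed on the log2 scale by 1.40 (SE 0.17, adjusted p = 5.4e-05) in renal vesicles against collecting ducts and -1.96 (SE 0.17, adjusted p = 3.7e-06) in s-shaped bodies against renal vesicles. Comparing s-shaped bodies with collecting ducts it was -0.56 (SE 0.17, adjusted p = 0.022), which was lost without s-shaped body 2, s-shaped body 3, collecting duct 1 or collecting duct 2 (log2 difference -0.57 to -0.47, adjusted p = 0.05 to 0.086). Rfc4, a clamp loader subunit, had log2 levels of 8.79, 9.17 and 9.09 in s-shaped bodies, 10.94, 10.72 and 10.26 in renal vesicles and 9.59, 9.16 and 9.32 in collecting ducts. The renal vesicle arrays were above all others, with log2 differences of 1.29 (SE 0.21, adjusted p = 0.00053) against collecting ducts and, for s-shaped bodies against renal vesicles, -1.63 (SE 0.21, adjusted p = 8.1e-05). Between s-shaped bodies and collecting ducts the difference was -0.34 (SE 0.21, adjusted p = 0.24).

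Pola1, the polymerase that primes with primase, had log2 levels of 9.53, 9.15 and 9.21 in s-shaped bodies, 10.31, 10.49 and 10.31 in renal vesicles and 9.92, 10.07 and 10.27 in collecting ducts. The fitted log2 difference was -0.79 (SE 0.17, adjusted p = 0.0034) in s-shaped bodies against collecting ducts and -1.07 (SE 0.17, adjusted p = 0.00042) in s-shaped bodies against renal vesicles. The renal vesicles did not pass against collecting ducts (0.29, adjusted p = 0.23). 

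Rfc5, Fen1 and Rpa2 fell in s-shaped bodies against collecting ducts as well as rising in renal vesicles. Rfc5, a clamp loader subunit, had log2 levels of 9.54, 9.66 and 9.72 in s-shaped bodies, 10.86, 10.89 and 10.79 in renal vesicles and 10.37, 10.26 and 10.48 in collecting ducts. The log2 differences were -0.73 (SE 0.15, adjusted p = 0.0023) for s-shaped bodies and 0.48 (SE 0.15, adjusted p = 0.027) for renal vesicles against collecting ducts, the last lost without renal vesicle 1, renal vesicle 2 or collecting duct 2 (log2 difference 0.43 to 0.47, adjusted p = 0.079 to 0.1). Fen1, which trims Okazaki fragments, had log2 levels of 11.64, 11.96 and 11.67 in s-shaped bodies, 12.94, 12.98 and 12.70 in renal vesicles and 12.23, 12.21 and 12.17 in collecting ducts. Against collecting ducts the log2 difference was -0.45 (SE 0.14, adjusted p = 0.024) in s-shaped bodies, lost without s-shaped body 1, s-shaped body 3 or collecting duct 2 (log2 difference -0.45 to -0.39, adjusted p = 0.065 to 0.083), and 0.67 (SE 0.14, adjusted p = 0.0026) in renal vesicles. Rpa2, which coats single-stranded DNA, had log2 levels of 8.21, 8.56 and 8.16 in s-shaped bodies, 9.83, 9.50 and 9.25 in renal vesicles and 9.18, 8.83 and 8.72 in collecting ducts. Against collecting ducts the log2 difference was -0.60 (SE 0.20, adjusted p = 0.039) in s-shaped bodies, lost without renal vesicle 2, s-shaped body 1, s-shaped body 3, collecting duct 1 or collecting duct 2 (log2 difference -0.64 to -0.46, adjusted p = 0.056 to 0.13). In renal vesicles it was 0.62 (SE 0.20, adjusted p = 0.036), lost without renal vesicle 1, renal vesicle 2, collecting duct 2 or collecting duct 3 (log2 difference 0.46 to 0.63, adjusted p = 0.081 to 0.15).

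Rfc3, Lig1, Pcna and Rpa1 passed in s-shaped bodies against renal vesicles and in neither comparison with collecting ducts. Rfc3, a clamp loader subunit, had log2 levels of 6.25, 6.37 and 5.13 in s-shaped bodies, 8.40, 8.24 and 7.44 in renal vesicles and 7.98, 7.41 and 5.71 in collecting ducts. Its values in s-shaped bodies and in collecting duct 3 lay below the array median of 7.28. Collecting duct 3 stood far below the other collecting ducts, with an SD of 1.18, and without it the gene passed in s-shaped bodies against collecting ducts (log2 difference -1.78, adjusted p = 0.0045). Without collecting duct 1 Rfc3 passed in renal vesicles against collecting ducts (log2 difference 1.46, adjusted p = 0.049). Lig1, which joins Okazaki fragments, had log2 levels of 10.34, 10.32 and 10.32 in s-shaped bodies, 11.29, 11.13 and 10.82 in renal vesicles and 10.84, 10.67 and 10.70 in collecting ducts. Its fall in s-shaped bodies against renal vesicles was -0.76 (SE 0.16, adjusted p = 0.0028). Without renal vesicle 3 Lig1 passed against collecting ducts in renal vesicles (0.47, adjusted p = 0.049) and in s-shaped bodies (-0.41, adjusted p = 0.047). Pcna, the sliding clamp, had log2 levels of 12.27, 12.05 and 12.27 in s-shaped bodies, 13.46, 13.22 and 12.60 in renal vesicles and 12.93, 12.66 and 11.44 in collecting ducts. Its fall in s-shaped bodies against renal vesicles, -0.90 (SE 0.32, adjusted p = 0.047), was lost without renal vesicle 1, renal vesicle 2, s-shaped body 1, s-shaped body 2, s-shaped body 3 or collecting duct 2 (log2 difference -0.94 to -0.71, adjusted p = 0.055 to 0.17). Pcna passed in renal vesicles against collecting ducts without renal vesicle 3 or collecting duct 1 (0.98 to 1.06, adjusted p = 0.025 to 0.048). It passed in s-shaped bodies against collecting ducts without collecting duct 3 (-0.59, adjusted p = 0.047). Rpa1, the partner of Rpa2, had log2 levels of 13.32, 13.60 and 13.68 in s-shaped bodies, 13.86, 13.83 and 13.85 in renal vesicles and 13.84, 13.83 and 13.68 in collecting ducts. Its fall, -0.31 (SE 0.11, adjusted p = 0.044), was lost without renal vesicle 1, renal vesicle 2, renal vesicle 3, s-shaped body 1, s-shaped body 2 or collecting duct 2 (log2 difference -0.35 to -0.21, adjusted p = 0.062 to 0.16). Another probe set of Rpa1 rose in renal vesicles against collecting ducts (0.49, adjusted p = 0.021). Prim1, the primase, rose there too (0.93, adjusted p = 0.0021).

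Of nucleotide supply, Rrm2, a ribonucleotide reductase subunit, had log2 levels of 12.37, 12.38 and 12.32 in s-shaped bodies, 13.59, 13.62 and 13.77 in renal vesicles and 12.32, 12.48 and 12.52 in collecting ducts. The renal vesicle arrays stood apart, with a log2 difference of 1.22 (SE 0.11, adjusted p = 6.1e-06) against collecting ducts and -1.30 (SE 0.11, adjusted p = 4e-06) for s-shaped bodies against renal vesicles. Rrm1, the other subunit, had log2 levels of 11.02, 11.44 and 10.64 in s-shaped bodies, 12.01, 11.74 and 11.94 in renal vesicles and 11.20, 11.46 and 10.90 in collecting ducts. Its log2 difference was 0.71 (SE 0.21, adjusted p = 0.022) in renal vesicles against collecting ducts, lost without renal vesicle 1, renal vesicle 3 or collecting duct 3 (log2 difference 0.56 to 0.69, adjusted p = 0.055 to 0.079), and -0.86 (SE 0.21, adjusted p = 0.0068) in s-shaped bodies against renal vesicles. Another, dimmer probe set of Rrm1 passed in neither (0.40, adjusted p = 0.19, and -0.52, adjusted p = 0.085). Tk1, thymidine kinase, had log2 levels of 8.56, 9.05 and 8.85 in s-shaped bodies, 9.02, 8.61 and 8.24 in renal vesicles and 8.43, 7.99 and 7.93 in collecting ducts. It was the S-phase gene called higher in s-shaped bodies against collecting ducts, with a log2 difference of 0.70 (SE 0.23, adjusted p = 0.033), which was lost without s-shaped body 2, s-shaped body 3, collecting duct 2 or collecting duct 3 (log2 difference 0.59 to 0.69, adjusted p = 0.077 to 0.13). Tyms, thymidylate synthase, gave log2 differences without the filter of -0.07 (s-shaped bodies against collecting ducts, adjusted p = 0.86), 0.37 (renal vesicles against collecting ducts, 0.29) and -0.44 (s-shaped bodies against renal vesicles, 0.19).

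Both E cyclins, which start S phase, fell in s-shaped bodies against renal vesicles. Ccne1 had log2 levels of 7.27, 6.99 and 7.25 in s-shaped bodies, 9.06, 8.69 and 8.40 in renal vesicles and 7.77, 7.71 and 8.06 in collecting ducts. Its s-shaped body values lay below the array median of 7.28. The log2 difference came to -1.54 (SE 0.21, adjusted p = 0.00011) in s-shaped bodies against renal vesicles and 0.87 (SE 0.21, adjusted p = 0.0067) in renal vesicles against collecting ducts. For s-shaped bodies against collecting ducts it was -0.67 (SE 0.21, adjusted p = 0.024), lost without s-shaped body 2 or collecting duct 3 (log2 difference -0.58 to -0.57, adjusted p = 0.063 to 0.096). Ccne2 had log2 levels of 8.43, 7.75 and 7.72 in s-shaped bodies, 9.56, 9.59 and 9.05 in renal vesicles and 9.32, 8.40 and 7.81 in collecting ducts. It differed on the log2 scale by -1.44 (SE 0.34, adjusted p = 0.0053) in s-shaped bodies against renal vesicles and 0.89 (SE 0.34, adjusted p = 0.062) in renal vesicles against collecting ducts. Without collecting duct 1 the last passed (log2 difference 1.29, adjusted p = 0.004). Without collecting duct 3 Ccne2 passed in s-shaped bodies against collecting ducts (log2 difference -0.90, adjusted p = 0.038).

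**Figure D5:**
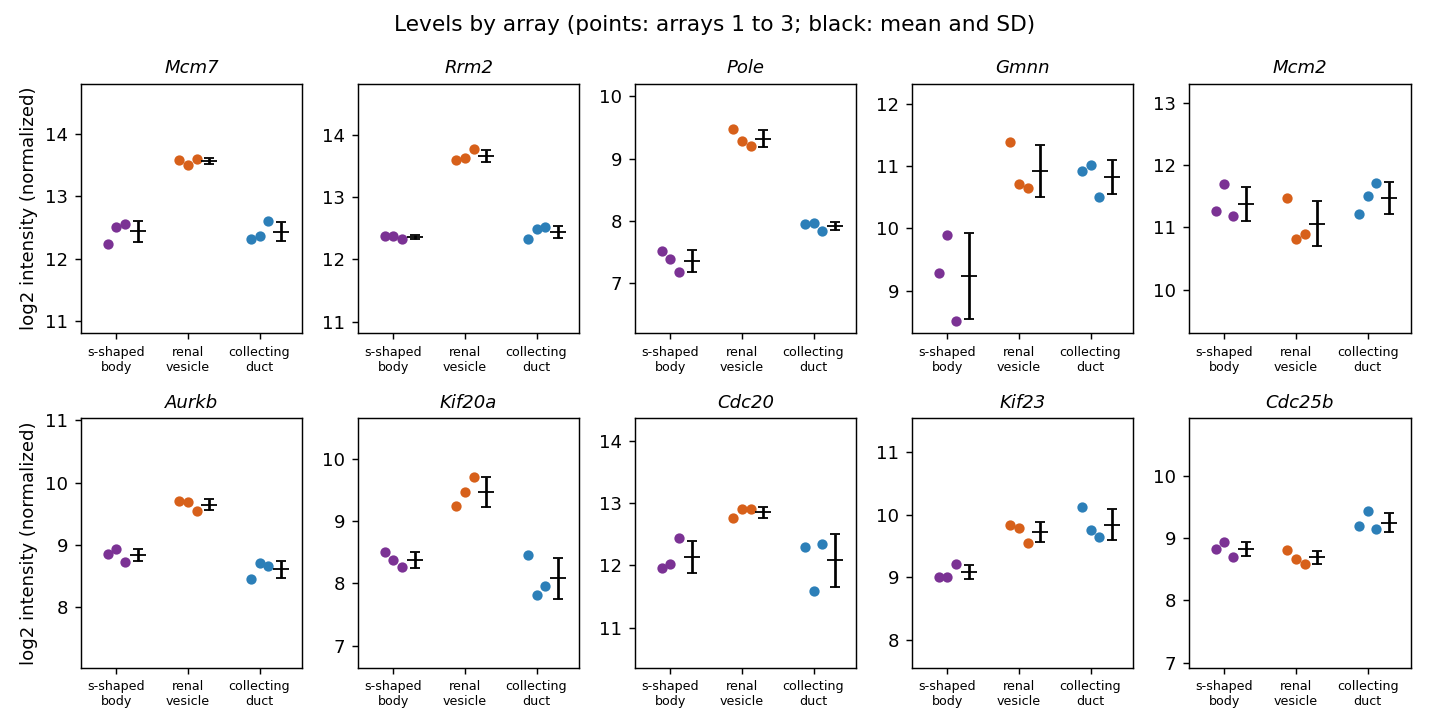
Log2 level of 10 genes in each array (coloured points) with the mean and SD of each structure (black), s-shaped body, renal vesicle and collecting duct. Axes span the same range and differ in position. The renal vesicle arrays are highest for Mcm7, Rrm2, Pole, Aurkb, Kif20a and Cdc20.

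Of the cyclins A and B, Cdk1 and its phosphatases, Ccna2, Ccnb2 and Cdc25c rose in renal vesicles against collecting ducts, and Cdc25b fell. Cdc25c, a phosphatase that activates Cdk1, had log2 levels of 7.87, 7.80 and 7.11 in s-shaped bodies, 8.91, 8.90 and 8.49 in renal vesicles and 7.99, 7.86 and 7.23 in collecting ducts. The fitted log2 difference was 1.07 (SE 0.26, adjusted p = 0.0073) in renal vesicles against collecting ducts and -1.18 (SE 0.26, adjusted p = 0.0036) in s-shaped bodies against renal vesicles. Ccna2 had log2 levels of 10.54, 10.56 and 10.97 in s-shaped bodies, 11.12, 11.27 and 11.33 in renal vesicles and 10.82, 10.65 and 10.31 in collecting ducts. Its log2 difference was 0.65 (SE 0.18, adjusted p = 0.017) in renal vesicles against collecting ducts, lost without renal vesicle 2 or renal vesicle 3 (log2 difference 0.60 to 0.63, adjusted p = 0.051 to 0.058). Comparing s-shaped bodies with renal vesicles it was -0.55 (SE 0.18, adjusted p = 0.032), lost without renal vesicle 1, renal vesicle 2, renal vesicle 3, s-shaped body 1 or s-shaped body 2 (log2 difference -0.61 to -0.48, adjusted p = 0.051 to 0.11). Cdc25b, a related phosphatase, had log2 levels of 8.82, 8.93 and 8.70 in s-shaped bodies, 8.81, 8.67 and 8.59 in renal vesicles and 9.19, 9.43 and 9.14 in collecting ducts. The collecting duct arrays were the highest, and the log2 difference in renal vesicles against collecting ducts was -0.56 (SE 0.16, adjusted p = 0.019), lost without renal vesicle 2, renal vesicle 3 or collecting duct 2 (log2 difference -0.55 to -0.48, adjusted p = 0.056 to 0.083). 

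Ccnb2, a B cyclin, had log2 levels of 10.06, 10.48 and 10.55 in s-shaped bodies, 10.62, 10.61 and 10.96 in renal vesicles and 10.27, 9.98 and 9.56 in collecting ducts. The rise in renal vesicles against collecting ducts was 0.80 (SE 0.21, adjusted p = 0.013), lost without renal vesicle 3 (log2 difference 0.68, adjusted p = 0.051), and s-shaped bodies did not pass against renal vesicles (-0.37, adjusted p = 0.21). Cdk1, the mitotic kinase, had log2 levels of 10.77, 11.38 and 11.03 in s-shaped bodies, 11.53, 11.40 and 11.01 in renal vesicles and 11.12, 10.77 and 10.08 in collecting ducts. Collecting duct 3 was the lowest. Neither s-shaped bodies (0.40, adjusted p = 0.27) nor renal vesicles (0.66, adjusted p = 0.072) passed against collecting ducts. Without collecting duct 1 the renal vesicles passed (log2 difference 0.89, adjusted p = 0.018).

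Both measured genes that work with the anaphase-promoting complex rose in renal vesicles against collecting ducts and fell in s-shaped bodies against renal vesicles. Ube2c, its ubiquitin-conjugating enzyme, had log2 levels of 9.54, 9.96 and 9.87 in s-shaped bodies, 10.60, 10.65 and 10.26 in renal vesicles and 9.75, 9.68 and 9.59 in collecting ducts. The log2 difference came to 0.83 (SE 0.18, adjusted p = 0.0033) in renal vesicles against collecting ducts and -0.71 (SE 0.18, adjusted p = 0.0075) in s-shaped bodies against renal vesicles. Cdc20, its activator, had log2 levels of 11.96, 12.03 and 12.44 in s-shaped bodies, 12.76, 12.90 and 12.91 in renal vesicles and 12.30, 11.59 and 12.34 in collecting ducts. It differed on the log2 scale by 0.78 (SE 0.20, adjusted p = 0.011) in renal vesicles against collecting ducts and -0.71 (SE 0.20, adjusted p = 0.015) in s-shaped bodies against renal vesicles, the last lost without renal vesicle 2, s-shaped body 1 or s-shaped body 2 (log2 difference -0.69 to -0.63, adjusted p = 0.05 to 0.06).

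All 7 mitotic kinases and spindle checkpoint genes rose in renal vesicles against collecting ducts, 6 fell in s-shaped bodies against renal vesicles, and 0 passed in s-shaped bodies against collecting ducts. Without renal vesicle 2, 3 of the 6 falls remained, those of Aurkb, Bub1b and Mad2l1. Aurkb, the Aurora kinase of the chromosomal passenger complex, had log2 levels of 8.86, 8.93 and 8.73 in s-shaped bodies, 9.71, 9.69 and 9.54 in renal vesicles and 8.46, 8.71 and 8.66 in collecting ducts. The renal vesicle arrays were above all others, with a log2 difference of 1.04 (SE 0.16, adjusted p = 0.00031) against collecting ducts and -0.81 (SE 0.16, adjusted p = 0.0016) for s-shaped bodies against renal vesicles. Another, dimmer probe set of Aurkb did not pass in s-shaped bodies against renal vesicles (-0.42, adjusted p = 0.14). Mad2l1, a checkpoint protein, had log2 levels of 10.66, 10.62 and 10.60 in s-shaped bodies, 12.00, 12.01 and 11.63 in renal vesicles and 11.31, 10.99 and 10.60 in collecting ducts. The fitted log2 difference was 0.92 (SE 0.19, adjusted p = 0.003) in renal vesicles against collecting ducts and -1.26 (SE 0.19, adjusted p = 0.00029) in s-shaped bodies against renal vesicles. Bub1, a checkpoint kinase, rose by 1.92 on the log2 scale in renal vesicles against collecting ducts, with an SD of 1.16 in collecting ducts. The fall of Bub1 in s-shaped bodies against renal vesicles was lost without renal vesicle 1, renal vesicle 2 or s-shaped body 2 (log2 difference -1.40 to -1.28, adjusted p = 0.053 to 0.072). In s-shaped bodies against collecting ducts, Bub1 passed without collecting duct 1 (1.02, adjusted p = 0.034) and Mad2l1 without collecting duct 3 (-0.53, adjusted p = 0.027). Plk1, the Polo kinase, had log2 levels of 7.74, 8.22 and 7.92 in s-shaped bodies, 8.68, 8.24 and 8.34 in renal vesicles and 8.10, 7.22 and 7.60 in collecting ducts. It rose by 0.78 in renal vesicles against collecting ducts, lost without renal vesicle 1 or collecting duct 2 (log2 difference 0.57 to 0.64, adjusted p = 0.11 to 0.12), and did not pass in s-shaped bodies against renal vesicles (-0.46, adjusted p = 0.16). Ttk rose by 0.92 in renal vesicles against collecting ducts, lost without renal vesicle 1 or renal vesicle 2 (log2 difference 0.86 to 0.91, adjusted p = 0.054 to 0.063). The falls of Aurka (-0.61) and Ttk (-0.87) in s-shaped bodies against renal vesicles were lost, for Aurka without renal vesicle 2 or s-shaped body 2 (log2 difference -0.59 to -0.50, adjusted p = 0.054 to 0.073) and for Ttk without renal vesicle 1, renal vesicle 2 or s-shaped body 3 (log2 difference -0.85 to -0.71, adjusted p = 0.063 to 0.096). In renal vesicles against collecting ducts Aurka rose by 0.72 and Bub1b by 1.08.

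Of the spindle and midzone genes, Kif11, Kif20a and Tpx2 rose in renal vesicles against collecting ducts and all 6 fell in s-shaped bodies against renal vesicles. Kif20a, a kinesin of cytokinesis, had log2 levels of 8.51, 8.38 and 8.26 in s-shaped bodies, 9.24, 9.47 and 9.71 in renal vesicles and 8.46, 7.82 and 7.96 in collecting ducts. Its log2 difference was 1.39 (SE 0.20, adjusted p = 0.00024) in renal vesicles against collecting ducts and -1.09 (SE 0.20, adjusted p = 0.0013) in s-shaped bodies against renal vesicles. Kif11, the kinesin that pushes spindle poles apart, had log2 levels of 8.29, 8.75 and 8.42 in s-shaped bodies, 9.51, 9.53 and 9.50 in renal vesicles and 8.28, 8.91 and 8.71 in collecting ducts. The log2 difference came to 0.88 (SE 0.20, adjusted p = 0.0045) in renal vesicles against collecting ducts and -1.03 (SE 0.20, adjusted p = 0.0014) in s-shaped bodies against renal vesicles. Kif23, a midzone kinesin, had log2 levels of 9.01, 9.01 and 9.21 in s-shaped bodies, 9.83, 9.79 and 9.54 in renal vesicles and 10.12, 9.76 and 9.65 in collecting ducts. The s-shaped body arrays were below all others. It differed on the log2 scale by -0.77 (SE 0.18, adjusted p = 0.005) in s-shaped bodies against collecting ducts and -0.64 (SE 0.18, adjusted p = 0.013) against renal vesicles, the last lost without renal vesicle 1, renal vesicle 2 or s-shaped body 2 (log2 difference -0.61 to -0.59, adjusted p = 0.05 to 0.054). 

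Nusap1 and Prc1, which bundle spindle microtubules, passed in s-shaped bodies against renal vesicles and in neither comparison with collecting ducts. Nusap1 had log2 levels of 9.70, 9.73 and 9.32 in s-shaped bodies, 10.74, 10.77 and 10.37 in renal vesicles and 10.62, 10.37 and 9.41 in collecting ducts. Its fall, -1.04 (SE 0.28, adjusted p = 0.011), was lost without s-shaped body 3 (log2 difference -0.92, adjusted p = 0.051). Without collecting duct 3 Nusap1 passed in s-shaped bodies against collecting ducts (log2 difference -0.91, adjusted p = 0.003). Prc1 had log2 levels of 10.28, 10.38 and 9.89 in s-shaped bodies, 10.60, 10.76 and 10.67 in renal vesicles and 10.45, 10.33 and 10.28 in collecting ducts. Its fall, -0.50 (SE 0.17, adjusted p = 0.035), was lost without renal vesicle 1, renal vesicle 2, renal vesicle 3, s-shaped body 1, s-shaped body 3 or collecting duct 2 (log2 difference -0.55 to -0.35, adjusted p = 0.052 to 0.15). Another probe set of Prc1 rose in renal vesicles against collecting ducts (1.09, adjusted p = 0.011). Tpx2, a spindle assembly factor, rose there by 0.88 on the log2 scale.

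Of the chromosome and centromere genes, Cenpa, Top2a and Mki67 rose in renal vesicles against collecting ducts. Cenpa, the centromeric histone, had log2 levels of 9.57, 10.13 and 9.95 in s-shaped bodies, 10.62, 10.69 and 10.36 in renal vesicles and 9.41, 9.35 and 9.59 in collecting ducts. The fitted log2 difference was 1.11 (SE 0.18, adjusted p = 0.00068) in renal vesicles against collecting ducts and -0.67 (SE 0.18, adjusted p = 0.013) in s-shaped bodies against renal vesicles, the last lost without renal vesicle 2 or s-shaped body 1 (log2 difference -0.60 to -0.52, adjusted p = 0.059 to 0.062). Top2a, a topoisomerase, had log2 levels of 12.33, 12.47 and 11.87 in s-shaped bodies, 12.93, 13.02 and 12.73 in renal vesicles and 12.60, 12.21 and 11.92 in collecting ducts. Its log2 difference was 0.65 (SE 0.19, adjusted p = 0.023) in renal vesicles against collecting ducts, lost without renal vesicle 1, renal vesicle 2, collecting duct 2 or collecting duct 3 (log2 difference 0.48 to 0.64, adjusted p = 0.067 to 0.085). Between s-shaped bodies and renal vesicles it was -0.67 (SE 0.19, adjusted p = 0.018), lost without renal vesicle 1, renal vesicle 2 or s-shaped body 3 (log2 difference -0.65 to -0.49, adjusted p = 0.054 to 0.085). Mki67, the Ki-67 antigen, had log2 levels of 12.10, 11.90 and 11.81 in s-shaped bodies, 12.57, 12.71 and 12.39 in renal vesicles and 12.22, 11.82 and 10.91 in collecting ducts. It rose by 0.91 in renal vesicles against collecting ducts, lost without renal vesicle 1 or renal vesicle 2 (log2 difference 0.82 to 0.90, adjusted p = 0.054 to 0.071). Mki67 did not pass in s-shaped bodies against renal vesicles (-0.62, adjusted p = 0.087). There it passed without collecting duct 1 or collecting duct 3, arrays outside that comparison (-0.63 to -0.61, adjusted p = 0.0048 to 0.032).

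Cenpf, a kinetochore protein, had log2 levels of 12.06, 11.94 and 11.80 in s-shaped bodies, 12.55, 12.44 and 12.38 in renal vesicles and 12.52, 12.74 and 12.11 in collecting ducts. In s-shaped bodies it fell against collecting ducts, with a log2 difference of -0.53 (SE 0.16, adjusted p = 0.026), lost without s-shaped body 2, s-shaped body 3, collecting duct 1 or collecting duct 2 (log2 difference -0.53 to -0.39, adjusted p = 0.059 to 0.12). Against renal vesicles it fell by 0.53 (SE 0.16, adjusted p = 0.024), lost without renal vesicle 1, renal vesicle 2, s-shaped body 2 or s-shaped body 3 (log2 difference -0.53 to -0.46, adjusted p = 0.06 to 0.09). With array weights it also fell in renal vesicles against collecting ducts (-0.26, adjusted p = 0.029). Birc5, survivin, had log2 levels of 9.50, 9.11 and 9.51 in s-shaped bodies, 10.24, 9.54 and 9.35 in renal vesicles and 9.58, 9.18 and 9.33 in collecting ducts. The structures overlapped, and it passed in no comparison (log2 differences 0.01, 0.35 and -0.34 in s-shaped bodies against collecting ducts, renal vesicles against collecting ducts and s-shaped bodies against renal vesicles). Cenpe, a kinetochore motor, gave log2 differences without the filter of -0.40 (adjusted p = 0.28), 0.36 (0.34) and -0.75 (0.038) in the same comparisons.

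Other genes of these pathways, listed from textbook knowledge, are given by their counts. Of 40 other replication genes tested (50 listed), 25 rose (62.5%) and 0 fell in renal vesicles against collecting ducts (median 0.65). Of all genes 15.6% rose and 15.9% fell there. In s-shaped bodies against collecting ducts 1 rose and 5 fell, and against renal vesicles 0 rose and 30 fell (median -0.90). Of 52 other mitosis genes tested (65 listed), 32 rose (61.5%) and 2 fell (3.85%) in renal vesicles against collecting ducts (median 0.67). In s-shaped bodies against collecting ducts 3 rose (5.77%) and 6 fell (11.5%), again beside 16.9% and 15.9% of all genes. Against renal vesicles 0 rose and 33 fell (63.5%, median -0.70), again beside 18.5% and 17.8% of all genes. In renal vesicles against collecting ducts the smallest adjusted p were those of Dut, the dUTPase (log2 difference 2.33, 5.4e-07), Nasp, a histone chaperone (1.31, 0.00012), and Exo1, an exonuclease (1.08, 0.00028). Of the mitosis genes they were Ncapg, a condensin subunit (1.58, 0.0002), Anp32e (1.19, 0.00021) and Cenpn (1.33, 0.00039). For s-shaped bodies against collecting ducts they were Ung, a uracil glycosylase (-1.51, 0.0003), Rpa3 (-0.84, 0.0079) and Hells (-1.19, 0.0082), and Spc25, a kinetochore protein (1.10, 0.0012), Wee1, the Cdk1-inhibiting kinase (-1.32, 0.0013), and Melk (-0.85, 0.0017). For s-shaped bodies against renal vesicles they were Dut (-1.88, 3.7e-06), Ung (-2.28, 1.5e-05), Exo1 (-1.30, 5.7e-05), Melk (-1.51, 2.6e-05), Trip13 (-1.07, 6.5e-05) and Ect2 (-1.38, 0.00011).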

How the data were processed

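Affymetrix MOE430A arrays measured 3 structures with 3 arrays each. The deposited values are intensity on a linear scale, made by the authors with GCOS per the submitters' processing notes, whose algorithm and genome build are not given in the sources used here. Array medians were 112.2 to 144.8, and precision is set by the number of arrays. All 22690 probe sets were read and named through a platform annotation of 2016.

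Before log2, 26 was added to each intensity as a pseudocount (percentile 20 of the table), and arrays were quantile normalized, since array medians differed by over 0.25. Probe sets above their array's median in at least 3 arrays were kept, and the brightest represented each gene. The pseudocount understates folds of dim genes. limma 3.58.1 in R 4.3.3 (lmFit, eBayes with trend, two-sided) was fitted to all 9 arrays (6 residual degrees of freedom), with Benjamini-Hochberg adjustment over 7998 genes. The script was tested on simulated data. Per-array values are given for 2 genes per role with the smallest F test p and for genes whose direction or call goes against most of their class. Leaving out an array kept the tested genes and normalized anew. The genes and lists were chosen with earlier results of these data known.

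The planned array weights (limma's default estimate) warned that they did not converge and gave collecting duct 2 a weight of 11.9. Their counts were seen before a gene-by-gene estimate was added, and both are reported.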

Additional observations from a re-analysis of the deposited data

Results flagged for a closer look

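Other probe sets of 3 genes passed above collecting ducts where the gene's brightest did not. They were fitted with all 11595 probe sets kept. In renal vesicles against collecting ducts the other probe set of Mcm2 had a log2 difference of 0.86 (adjusted p = 0.0036), that of Rpa1 0.49 (0.021) and that of Prc1 1.09 (0.011). The Mcm2 probe set used above had -0.41 there. In s-shaped bodies against renal vesicles the other Mcm2 probe set had -1.10 (adjusted p = 0.00062), against 0.31 for the probe set used above. Of 25 other probe sets of 20 genes, 24 had the call reported for the gene in s-shaped bodies against collecting ducts, 20 in renal vesicles against collecting ducts and 19 in s-shaped bodies against renal vesicles, with 0 opposite calls. Some called genes had another probe set that did not pass. These were Mcm3 (0.71, adjusted p = 0.051) and Rrm1 (0.40, 0.19) in renal vesicles against collecting ducts. Fen1 was one in s-shaped bodies against collecting ducts (-0.39, 0.29). In s-shaped bodies against renal vesicles they were Rrm1 (-0.52, 0.085), Aurkb (-0.42, 0.14), Ccna2 (-0.39, 0.22), Cenpf (-0.47, 0.11) and Prc1 (-0.66, 0.089). In this fit the brightest probe sets of Rpa1 (-0.31, adjusted p = 0.052) and Pcna (-0.90, adjusted p = 0.051) did not pass in s-shaped bodies against renal vesicles.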

How the results depend on the processing

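Over the alternatives, 3131 of 3429 values of the genes kept direction and call, 142 lost the call, 77 gained it, 78 changed sign while uncalled in both settings, and 1 changed sign with a call. That was Cenpf in renal vesicles against collecting ducts, -0.26 (adjusted p = 0.029) with array weights. Array weights, planned with limma's default estimate, did not converge. They called 4507 genes in s-shaped bodies against collecting ducts (2624 without weights), 4753 in renal vesicles against collecting ducts (2519) and 6117 by the F test (3970). They called 14 S-phase genes lower, 6 mitotic genes higher and 6 lower in s-shaped bodies against collecting ducts. In renal vesicles against collecting ducts they called 1 S-phase gene and 2 mitotic genes lower. The gene-by-gene estimate, added after those counts were seen, called 2 mitotic genes higher and 5 lower in s-shaped bodies against collecting ducts. In that comparison Tk1 was not called, leaving 0 S-phase genes higher, with median centring, with no filter, or without renal vesicle 3 and collecting duct 2 together. Leaving out those 2 arrays gave 5 S-phase genes lower there and 1 mitotic gene lower, and 11 S-phase genes higher and 0 mitotic genes lower in renal vesicles against collecting ducts. The mitotic count lower was 1 in s-shaped bodies against collecting ducts with median centring or with only the 2 groups compared, and 0 in renal vesicles against collecting ducts with median centring. Leaving out each array gave, in s-shaped bodies against collecting ducts, 0 to 1 S-phase genes higher, 5 to 11 lower, 0 to 1 mitotic genes higher and 1 to 5 lower. In renal vesicles against collecting ducts it gave 0 to 1 mitotic genes lower, and in s-shaped bodies against renal vesicles 9 to 20 mitotic genes lower. Some genes that were not called gained a call when 1 array was left out. In renal vesicles against collecting ducts these were 5 of 10 S-phase and 1 of 6 mitotic genes. In s-shaped bodies they were 5 of 18 and 5 of 23 against collecting ducts, and 0 of 2 and 1 of 6 against renal vesicles. Same-numbered arrays had correlations of deviations of -0.03 to 0.16, with 5 of 9 pairs over 0.1, and differently numbered arrays -0.16 to 0.15, with 1 of 18 over 0.1. Since the labels name no shared source and not every same-numbered pair was over 0.1, the numbers were not taken to pair the arrays. With the replicate block, 149 of 156 values kept direction and call, Rpa1 in s-shaped bodies against renal vesicles lost its call (-0.31, adjusted p = 0.062), and 6 gained one: Rfc3 in s-shaped bodies (-1.12, adjusted p = 0.011) and renal vesicles (0.99, 0.021), Pcna (0.75, 0.041), Ccne2 (0.89, 0.012) and Cdk1 (0.66, 0.048) in renal vesicles, all against collecting ducts, and Mki67 in s-shaped bodies against renal vesicles (-0.62, 0.04). The cause of these changes was not tested.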
